A study of Rattus norvegicus with 12 samples.

Results

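The genes described here are Nfe2l2, which encodes the transcription factor NRF2, 7 genes of thiol and glutathione defence that are known or reported as its targets (Nqo1, Gclc, Gclm, Txnrd1, Srxn1, Slc7a11 and Gpx4), and the metallothionein genes Mt2A and Mt3. They were chosen by symbol and, like the gene lists used below, with earlier results of these data known. Shares of the 10 genes or of a list beside those of all tested genes are therefore descriptions. All 10 were found among the 37209 symbols of the count table. All 10 were also among the 17008 genes with enough counts to be tested. They were followed through 12 libraries of bulk RNA sequencing from rat brain. The stroke groups were middle cerebral artery occlusion (MCAO, blockage of the main artery of a cerebral hemisphere) and pontine infarction (PI, a stroke of the pons in the brainstem). Each was set against the sham group whose code begins with the same letter, sham LN for MCAO and sham PN for PI. All groups were Sprague Dawley rats at postnatal day 21, with no transgene or drug named, and each had 3 libraries. The labels name brain without a region and give no time after the stroke. They speak of 3 rats for each stroke without saying more of the replicates, so the p-values measure the spread between these libraries. The unnumbered MCAO library is the one whose column code occurs in no sample title.

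NRF2 is a transcription factor that the adaptor KEAP1 holds in the cytoplasm and passes on for degradation. Oxidants and electrophiles modify cysteines of KEAP1, NRF2 then accumulates, pairs with small MAF proteins and binds antioxidant response elements (AREs) in front of genes for glutathione synthesis, thioredoxin reduction and quinone reduction, while BACH1 competes for the same elements. Metallothioneins are small cysteine-rich proteins that bind zinc and copper. The metal-sensing factor MTF1 switches on the Mt1 and Mt2 genes through metal response elements (MREs), whereas Mt3 is expressed mainly in brain and is known as a member that metals induce little. In injured brain, both systems are best known from glia and from invading white blood cells.

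The promoter sequences are shown so that any ARE and MRE cores close to the start of these genes can be read. All 10 genes were matched to RefSeq promoter windows of 300 bases (250 before to 50 after the annotated start, assembly GRCr8), with 13 windows in all. The ARE core searched was TGACNNNGC, and the MRE cores were TGCACNC and TGCGCNC, all on both strands and with overlaps allowed. An ARE core was held by 12.1% of all 33469 windows, and at least 1 MRE core by 24.2%. The 3 metallothionein windows below have MRE cores in capitals, on either strand. They are Mt2A at chr19:10838659-10838958, Mt1 at chr19:10832926-10833225 (listed in the count table as Mt1a, a synonym) and Mt3 at chr19:10856031-10856330, all on the minus strand and printed in the direction of the gene.
Mt2A: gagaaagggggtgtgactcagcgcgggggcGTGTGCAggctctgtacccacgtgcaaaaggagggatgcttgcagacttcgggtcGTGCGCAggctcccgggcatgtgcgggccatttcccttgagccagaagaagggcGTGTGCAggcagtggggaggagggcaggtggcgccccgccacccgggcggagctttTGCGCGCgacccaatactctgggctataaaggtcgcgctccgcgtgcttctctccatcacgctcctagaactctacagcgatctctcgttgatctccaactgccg
Mt1: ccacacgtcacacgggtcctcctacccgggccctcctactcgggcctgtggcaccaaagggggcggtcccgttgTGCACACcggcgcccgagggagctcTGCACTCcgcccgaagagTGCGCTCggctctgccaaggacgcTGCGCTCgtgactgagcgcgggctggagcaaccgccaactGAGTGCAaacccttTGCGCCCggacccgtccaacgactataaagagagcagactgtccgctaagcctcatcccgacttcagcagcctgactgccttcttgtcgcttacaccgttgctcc
Mt3: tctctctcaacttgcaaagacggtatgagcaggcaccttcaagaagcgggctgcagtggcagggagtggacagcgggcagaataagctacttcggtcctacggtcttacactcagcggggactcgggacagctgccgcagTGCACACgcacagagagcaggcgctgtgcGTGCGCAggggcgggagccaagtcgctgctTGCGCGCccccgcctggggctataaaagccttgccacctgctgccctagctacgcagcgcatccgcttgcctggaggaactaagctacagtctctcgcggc

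The Mt2A window held 4 MRE cores, the Mt1 window 6 and the Mt3 window 3, against 1.68% of all windows with at least 3 cores. Of the other genes, Gclm had 2. ARE cores were found in 4 of the 10 genes, Nfe2l2, Gclm, Txnrd1 and Mt2A, each with 1, and there was 1 more in Mt1. The Txnrd1 window with the ARE core (chr7:22755855-22756154, minus strand) and the Gclm window (chr2:213031885-213032184, plus strand) are shown with that core in capitals, read on the opposite strand.
Txnrd1: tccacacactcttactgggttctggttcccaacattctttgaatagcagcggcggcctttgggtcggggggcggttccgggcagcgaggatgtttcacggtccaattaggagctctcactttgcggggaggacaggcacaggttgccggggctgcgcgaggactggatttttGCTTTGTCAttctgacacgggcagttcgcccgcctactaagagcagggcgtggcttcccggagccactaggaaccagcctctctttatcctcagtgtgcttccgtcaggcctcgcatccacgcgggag
Gclm: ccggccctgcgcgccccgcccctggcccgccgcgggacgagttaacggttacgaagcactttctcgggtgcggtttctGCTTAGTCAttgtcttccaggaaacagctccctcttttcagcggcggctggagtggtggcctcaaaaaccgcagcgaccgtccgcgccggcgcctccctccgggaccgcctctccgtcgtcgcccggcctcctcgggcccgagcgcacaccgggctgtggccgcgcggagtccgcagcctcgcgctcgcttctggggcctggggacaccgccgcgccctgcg

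The windows of Nqo1, Gclc, Srxn1, Slc7a11 and Gpx4 held neither core. A match of letters is a description and does not show a bound site, and the absence of a match says only that the letters are not in these 300 bases.

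**Figure D1:**
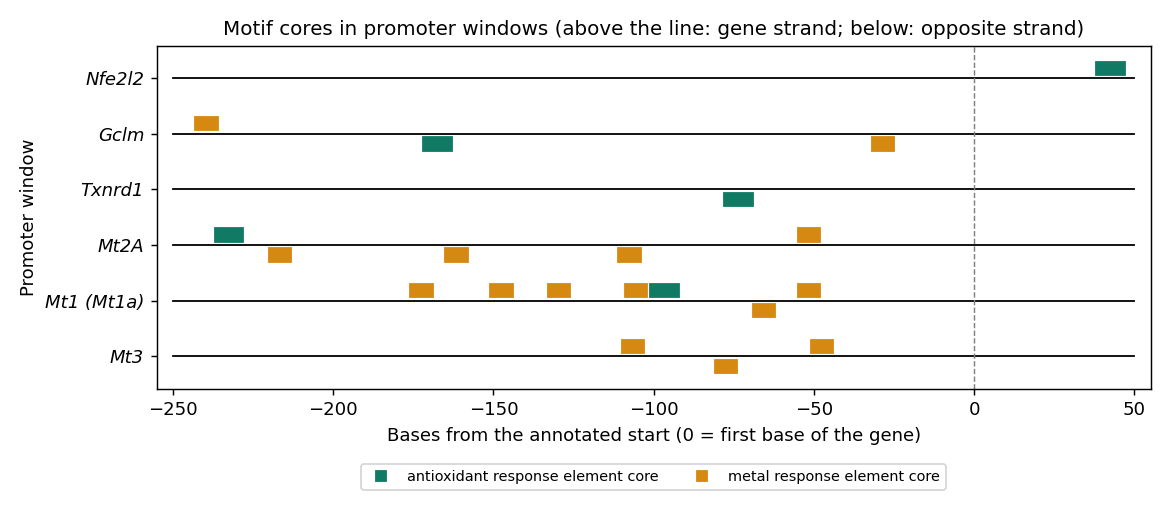
Positions of ARE cores (green) and MRE cores (orange) in the RefSeq windows that hold either, with bases from the annotated start on the horizontal axis and 1 line per gene. Boxes above a line are on the strand of the gene, and boxes below it on the other. The Mt1 window holds 6 MRE cores and the Mt2A window 4.

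The libraries held 19805815 to 40400676 counts. Levels are CPM, counts relative to the library total after TMM scaling, given per library or as mean ± SD (n = 3), and log2 changes are given ± SE. Telencephalon markers summed to 157 to 361 CPM in the MCAO libraries and 307 to 462 CPM in sham LN, but only to 5.54 to 7.25 CPM after PI and 11.2 to 11.9 CPM in sham PN. Hindbrain markers summed to 3.50 to 21.6 CPM after MCAO and 2.08 to 3.02 CPM in sham LN, against 22.0 to 71.8 CPM after PI and 82.1 to 124 CPM in sham PN. The 8 markers of microglia and macrophages summed to 2187, 476 and 861 CPM in MCAO replicate 1, MCAO replicate 2 and the unnumbered MCAO library, against 221 to 272 CPM in sham LN. They summed to 1264, 701 and 2080 CPM in PI replicates 1 to 3, against 222 to 260 CPM in sham PN. Neutrophil markers summed to 568, 49.3 and 263 CPM in the same order of MCAO libraries against at most 4.48 CPM in sham LN, and to 189, 20.3 and 47.3 CPM after PI against at most 4.80 CPM in sham PN. In both marker sums MCAO replicate 2 was the lowest of its group, and it was also the MCAO library nearest to the shams for most of the genes below. Of the 8 markers of microglia and macrophages, 5 were called higher and 0 lower after MCAO (edgeR, adjusted p under 0.05), where 18.6% of all tested genes were called. After PI 7 were called higher and 0 lower, where 4.08% were called. After MCAO Lyz2 averaged 642 ± 673 CPM against 28.1 ± 3.97 CPM in sham LN. Cx3cr1 went the other way, with 35.1 ± 36.0 CPM against 67.8 ± 10.4 CPM, while 7 of the 8 had a positive log2 change. In bulk tissue, fewer cells of a type and less RNA per cell cannot be told apart, and the part of these cell markers in the results was not tested.

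After MCAO, 4 of the 10 genes rose and none fell (edgeR, adjusted p under 0.05), in a comparison in which 18.6% of all tested genes were called, 12.5% higher and 6.07% lower. The 4 were Nfe2l2, Txnrd1, Srxn1 and Mt2A. After PI, only Mt2A passed among the 10, where 4.08% of all tested genes were called, 3.21% higher and 0.870% lower. After MCAO the libraries of the groups did not overlap for 5 of the 10 genes on the high side and 1 on the low side, against 39.1% of all tested genes (20.4% higher, 18.7% lower). After PI the corresponding numbers were 3 and 1 of the 10 genes, against 32.0% of all tested genes (13.3% higher, 18.7% lower). The median log2 change of the 10 genes was 0.81 after MCAO, beside -0.00 for all tested genes, and 0.16 after PI, beside -0.08. Without MCAO replicate 2, 7 of the 10 were called, 6 of them higher and Mt3 lower, while 35.2% of all tested genes were then called. Taking out any other single MCAO or sham LN library left 1 call among the 10, Srxn1.

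**Figure D2:**
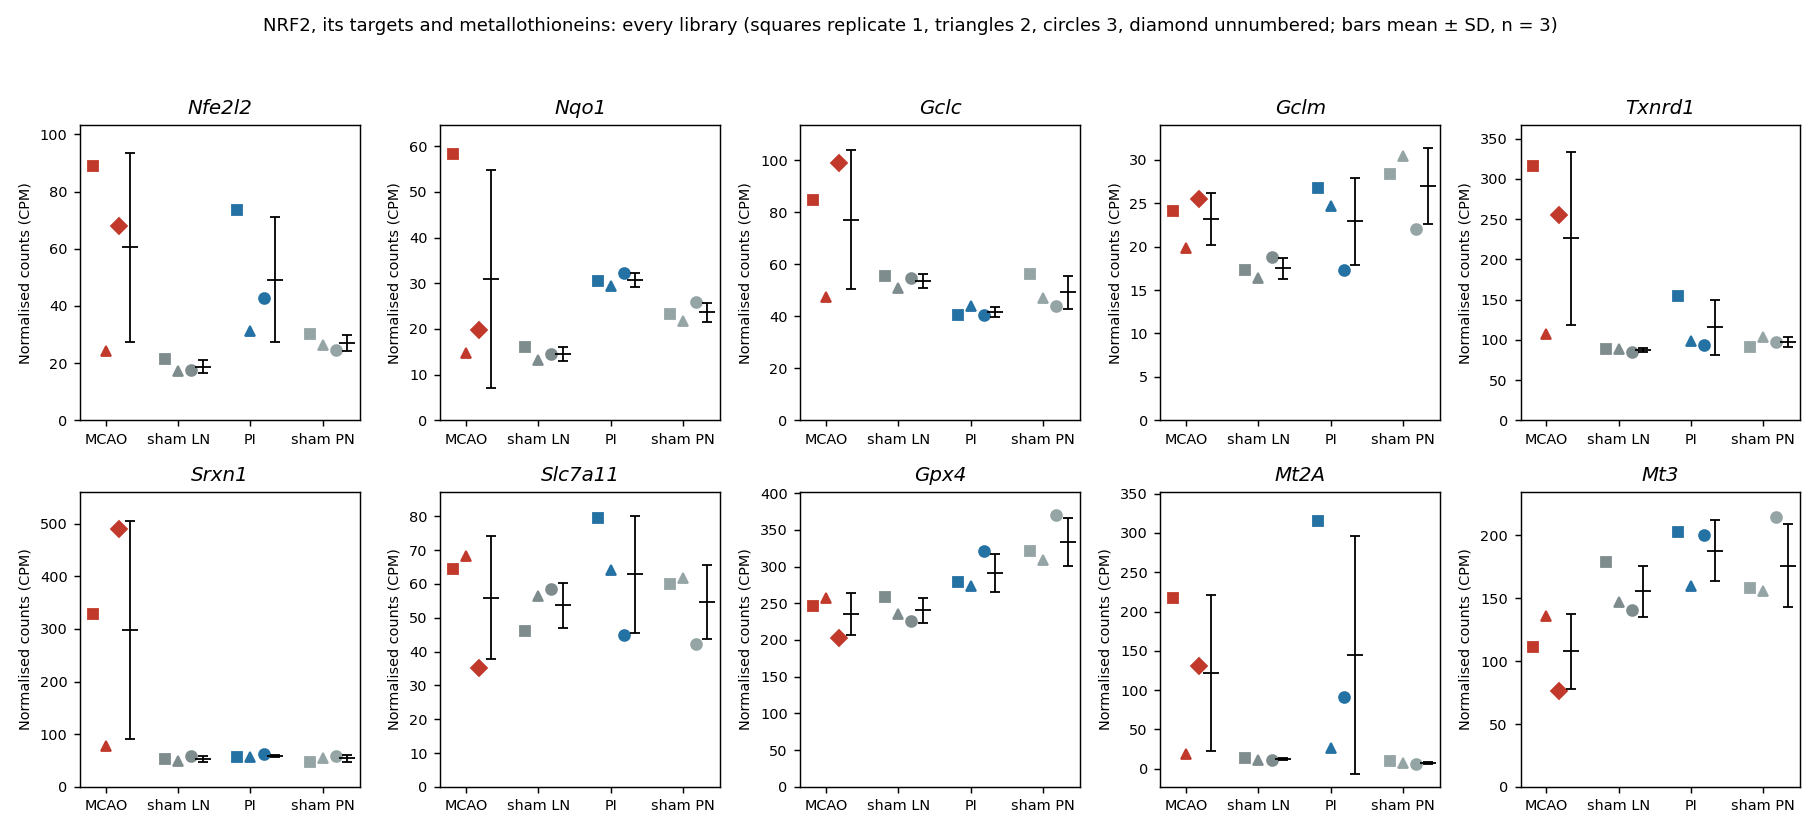
CPM of the 10 genes in every library (marker shapes give the replicate, bars the mean ± SD, n = 3), with MCAO, sham LN, PI and sham PN from left to right. In the Nfe2l2, Txnrd1, Srxn1 and Mt2A panels the MCAO replicate 2 triangle lies close to sham LN while the other MCAO libraries lie well above.

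Nfe2l2, the NRF2 gene itself, was higher after both strokes but passed the test only after MCAO. Its levels were 89.1, 24.4 and 68.1 CPM in MCAO replicate 1, MCAO replicate 2 and the unnumbered MCAO library, against 21.4, 17.2 and 17.7 CPM in sham LN. The groups did not overlap, although MCAO replicate 2 was only slightly above the highest sham. The log2 change was 1.69 ± 0.41, or 3.22-fold (edgeR adjusted p = 0.0178). Leaving out any single library other than MCAO replicate 2 ended the call, with edgeR adjusted p between 0.0567 and 0.0862, and without MCAO replicate 2 the change was 1.97 ± 0.30 (adjusted p = 0.000714). After PI, Nfe2l2 stood at 73.7, 31.3 and 42.7 CPM, against 30.2, 26.2 and 24.5 CPM in sham PN. Every PI library lay above every sham PN library, but with a wide spread, and the change of 0.87 ± 0.40 did not pass (edgeR adjusted p = 0.238).

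The partners of NRF2 were read from a list of 9 tested genes. After MCAO 3 rose, 1 fell and 5 did not pass, and after PI 1 rose and 8 did not pass, where 18.6% of all tested genes were called after MCAO and 4.08% after PI. Maff, a small MAF protein, averaged 36.7 ± 21.0 CPM after MCAO, against 1.27 ± 0.458 CPM in sham LN (log2 change 4.85 ± 0.55, edgeR adjusted p = 0.0011). It was also the PI call, at 22.2 ± 9.97 CPM after PI and 1.73 ± 0.277 CPM in sham PN (3.67 ± 0.53, edgeR adjusted p = 0.00759), a call lost without sham PN replicate 3 (adjusted p = 0.0723) and with limma voom (adjusted p = 0.0552). Bach1, the competitor of NRF2, rose after MCAO by 1.71 ± 0.35 (edgeR adjusted p = 0.0089) and the small MAF gene Mafk by 1.60 ± 0.32 (edgeR adjusted p = 0.00847). Keap1 was the gene that fell, with 88.2, 95.3 and 62.5 CPM after MCAO against 118, 116 and 116 CPM in sham LN. Its log2 change was -0.51 ± 0.15 (edgeR adjusted p = 0.0374), a call that 4 of the 6 fits without 1 library did not keep (adjusted p up to 0.104). After PI the Keap1 value was -0.26 ± 0.15 (edgeR adjusted p = 0.344).

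Srxn1, which encodes sulfiredoxin, the enzyme that repairs overoxidised peroxiredoxins, had the firmest change of the 10. It stood at 328, 78.5 and 489 CPM in the MCAO libraries, against 53.2, 48.3 and 58.8 CPM in sham LN. All MCAO libraries were above all sham LN libraries, replicate 2 by the least. The log2 change was 2.48 ± 0.46, or 5.60-fold (edgeR adjusted p = 0.00619). The call held with each library left out in turn, with log2 changes from 1.93 to 2.85 and edgeR adjusted p from 1.26e-05 to 0.0345. After PI, Srxn1 was at 57.4, 56.6 and 61.6 CPM, against 47.3, 55.7 and 59.5 CPM in sham PN, and these groups overlapped (log2 change 0.11 ± 0.44, edgeR adjusted p = 0.908).

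Txnrd1, the cytosolic thioredoxin reductase whose ARE-bearing window is printed above, was also lowest in MCAO replicate 2 among the MCAO libraries. Its levels were 315, 107 and 255 CPM in the MCAO libraries, against 88.5, 89.1 and 84.2 CPM in sham LN, with no overlap. The log2 change was 1.37 ± 0.32, or 2.59-fold (edgeR adjusted p = 0.015). It kept its call without MCAO replicate 2 (1.61, adjusted p = 0.000236) and lost it without each other library (edgeR adjusted p 0.0501 to 0.0752). In the PI libraries Txnrd1 stood at 154, 98.5 and 93.4 CPM, against 90.7, 103 and 97.8 CPM in sham PN. Only PI replicate 1 stood above the shams, and the change of 0.25 ± 0.31 did not pass (edgeR adjusted p = 0.683).

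Nqo1, a quinone reductase and a standard readout of NRF2 in other tissues, showed a large value in a single MCAO library. Its levels were 58.4, 14.7 and 19.8 CPM in the MCAO libraries, against 16.0, 13.1 and 14.5 CPM in sham LN. MCAO replicate 2 lay within the sham range, and the log2 change of 1.09 ± 0.39 did not pass (edgeR adjusted p = 0.0723). MCAO replicate 1 was also the library in which choroid plexus markers summed to 1084 CPM, against 1.48 and 8.27 CPM in the other MCAO libraries. Among the MCAO libraries it had the highest Nfe2l2, Txnrd1 and Mt2A levels too, whereas Srxn1, Gclc and Gclm were highest in the unnumbered library. The part of that tissue in the Nqo1 value or in these others was not tested. Without MCAO replicate 1 the Nqo1 value was 0.17 (edgeR adjusted p = 0.570). After PI, Nqo1 was tight, at 30.5, 29.3 and 32.3 CPM against 23.3, 21.7 and 25.9 CPM in sham PN. The PI libraries lay above the shams without overlap, but the change was small in the fit (0.38 ± 0.39, edgeR adjusted p = 0.603).

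Glutathione synthesis was represented by Gclc and Gclm, the catalytic and modifier subunits of glutamate-cysteine ligase, and by Slc7a11, the cystine importer xCT. None of the 3 passed in either stroke. Gclc stood at 84.8, 47.2 and 99.0 CPM in the MCAO libraries, against 55.6, 50.7 and 54.6 CPM in sham LN (log2 change 0.52 ± 0.22, edgeR adjusted p = 0.114). MCAO replicate 2 lay below all sham LN libraries and the other MCAO libraries above them, and without replicate 2 the gene was called (0.68, edgeR adjusted p = 0.00373). After PI, Gclc was at 40.4, 43.9 and 40.6 CPM, just below the 56.3, 47.1 and 44.1 CPM of sham PN, without overlap (log2 change -0.24 ± 0.22, edgeR adjusted p = 0.556).

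Gclm had 24.1, 19.8 and 25.5 CPM after MCAO, against 17.3, 16.4 and 18.8 CPM in sham LN. The groups did not overlap, but the gap was narrow (log2 change 0.40 ± 0.19, edgeR adjusted p = 0.159). It had 26.8, 24.6 and 17.3 CPM after PI, against 28.4, 30.4 and 22.1 CPM in sham PN, with overlap (-0.24 ± 0.19, edgeR adjusted p = 0.505). Slc7a11 overlapped in both comparisons, with 64.3, 68.4 and 35.2 CPM after MCAO against 46.0, 56.5 and 58.5 CPM in sham LN. After PI it had 79.4, 64.1 and 45.0 CPM, against 59.9, 61.9 and 42.2 CPM in sham PN. Its log2 changes were 0.06 ± 0.27 after MCAO (edgeR adjusted p = 0.895) and 0.20 ± 0.27 after PI (edgeR adjusted p = 0.698), and the sign of the MCAO value turned when no filter on low counts was used (-0.04).

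Gpx4, the glutathione peroxidase that reduces lipid hydroperoxides and holds back ferroptosis, overlapped its shams in both comparisons. It stood at 247, 257 and 203 CPM after MCAO, against 259, 236 and 226 CPM in sham LN (log2 change -0.03 ± 0.13, edgeR adjusted p = 0.900). After PI it stood at 279, 273 and 321 CPM, against 321, 309 and 371 CPM in sham PN (-0.19 ± 0.13, edgeR adjusted p = 0.423). Its standard errors were the smallest of the 10 genes.

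Mt2A was the only one of the 10 genes called after both strokes, and it had the largest fold change in each. In the MCAO libraries it stood at 217, 19.0 and 131 CPM, against 14.1, 11.3 and 11.2 CPM in sham LN. In the PI libraries it stood at 315, 26.9 and 91.2 CPM, against 9.33, 6.88 and 5.79 CPM in sham PN. No stroke library overlapped its shams, but the level differed widely within each stroke, and the lowest library was replicate 2 in both. The log2 change was 3.32 ± 0.88 after MCAO, or 9.98-fold (edgeR adjusted p = 0.0252), and 4.30 ± 0.93 after PI, or 19.7-fold (edgeR adjusted p = 0.0273). The MCAO call was kept without MCAO replicate 2 (3.73, adjusted p = 0.0029) and lost without each other library (edgeR adjusted p 0.0646 to 0.0926). The PI call was lost without PI replicate 1, where the change was 3.01, or 8.03-fold (edgeR adjusted p = 0.0681), and without each sham PN library in turn (0.0844 to 0.146). It was also lost with limma voom (adjusted p = 0.118).

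The neighbouring metallothionein Mt1a, whose window carries 6 MRE cores, had the same order of libraries within each stroke group. It stood at 80.1, 7.60 and 56.4 CPM after MCAO, against 4.27, 4.22 and 5.85 CPM in sham LN (log2 change 3.33 ± 0.80, edgeR adjusted p = 0.0166). After PI it stood at 57.1, 8.02 and 19.5 CPM, against 3.40, 3.36 and 2.84 CPM in sham PN (3.13 ± 0.80, edgeR adjusted p = 0.0511). The MCAO call was lost in 4 of the 6 fits without 1 library (edgeR adjusted p up to 0.0723) and with limma voom (adjusted p = 0.0797). The PI value passed in 6 of 8 other settings and in 1 of the 6 fits without 1 library, with adjusted p between 0.000175 (DESeq2) and 0.240 (limma voom). Mt1m, a further copy, had 140, 4 and 72 counts after MCAO and 4, 1 and 3 counts in sham LN, and 174, 32 and 52 counts after PI against 0, 3 and 1 counts in sham PN. It was called after MCAO (edgeR adjusted p = 0.0187) and PI (edgeR adjusted p = 0.0376). These Mt1m calls were not followed through the other settings or the fits without 1 library. Metallothionein genes are paralogs with similar coding sequences, and how the authors' counting treated reads that match several of them is not given in the sources used here, so their separate values are uncertain to that extent. Mtf1, the metal sensor, averaged 19.8 ± 1.90 CPM after MCAO, against 19.4 ± 1.27 CPM in sham LN (log2 change 0.03 ± 0.14, edgeR adjusted p = 0.901), with a sign that turned under DESeq2 size factors.

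Mt3, the brain metallothionein, did not share the increase. It had 112, 136 and 75.9 CPM after MCAO, against 179, 147 and 141 CPM in sham LN. All MCAO libraries were below all sham LN libraries, the unnumbered library by the most, and the change of -0.53 ± 0.21 did not pass (edgeR adjusted p = 0.0987). Without MCAO replicate 2 it passed (-0.83, edgeR adjusted p = 0.0120). After PI it had 203, 159.8 and 200.5 CPM, against 158, 156 and 214 CPM in sham PN, with overlap (0.09 ± 0.21, edgeR adjusted p = 0.830). Neuron markers summed to 2641 to 4741 CPM after MCAO, against 4398 to 5754 CPM in sham LN, and 0 of the 6 were called (edgeR). Of 8 astrocyte markers 1 was called higher and 4 lower after MCAO. Of 5 tested oligodendrocyte markers 2 were called lower and 0 higher, where 18.6% of all tested genes were called. The part of these 3 sets of markers in the Mt3 value was not tested.

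**Figure D3:**
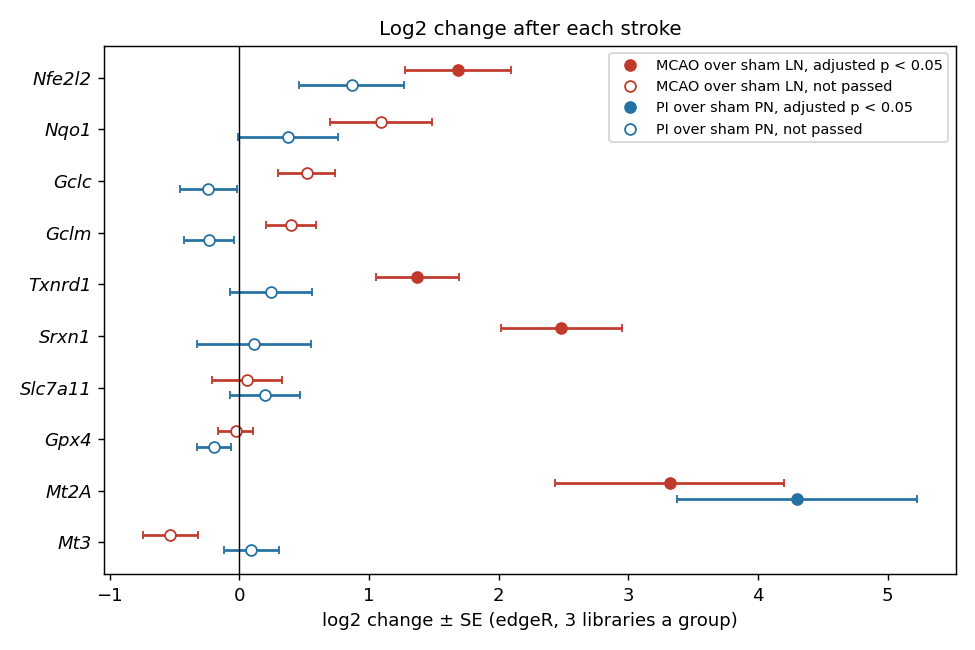
Log2 change ± SE of each gene (edgeR, 3 libraries a group) after MCAO over sham LN and after PI over sham PN. Mt2A lies to the right in both strokes, at 3.32 and 4.30, while Srxn1 is at 2.48 after MCAO and 0.11 after PI.

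The members were also set against the sham mean in each stroke library. Relative to the sham LN mean, 9 of the 10 genes were higher in MCAO replicate 1, 8 in the second numbered library and 7 in the unnumbered MCAO library, with median log2 differences of 1.26, 0.24 and 0.71. In MCAO replicate 2 Nfe2l2 was at 1.30 times the sham mean, Txnrd1 at 1.23 times, Srxn1 at 1.47 times and Mt2A at 1.56 times. In the same library Hmox1, the heme oxygenase that is a further NRF2 target, was at 17.0 times the sham mean, and it was at 111 and 43.8 times in MCAO replicate 1 and the unnumbered library. Among PI libraries, 8, 6 and 5 of the 10 genes were above the sham PN mean in replicates 1 to 3, with median log2 differences of 0.30, 0.04 and 0.07. The share of all tested genes above the sham mean was not counted for single libraries. The counts in MCAO and PI libraries therefore only describe the 10 genes and do not set them apart from other genes.

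**Figure D4:**
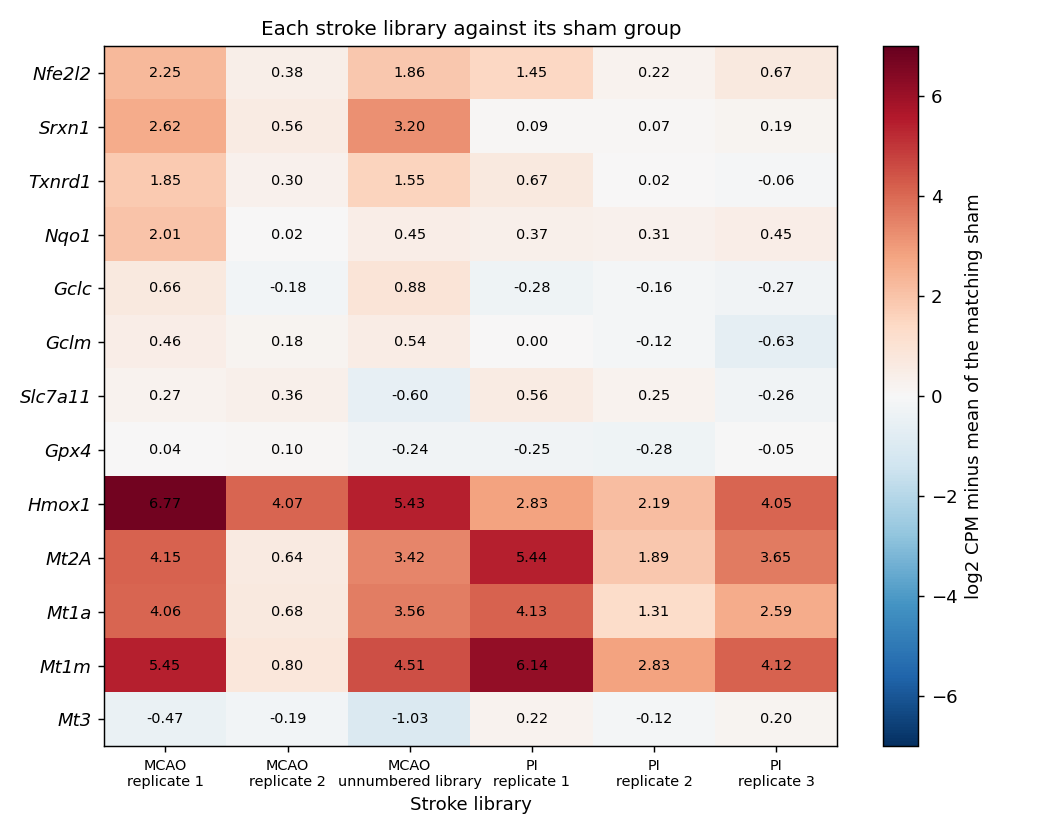
Colour map of log2 CPM of each gene in each stroke library minus the mean of its sham group, with genes down the page and the 3 MCAO libraries left of the 3 PI libraries. Hmox1, Mt1a and Mt1m are shown beside the 10 genes. MCAO replicate 2 is pale for all rows other than Hmox1, at 0.64 for Mt2A, while PI replicate 1 reaches 5.44 for Mt2A.

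The difference between the strokes was tested as the MCAO response minus the PI response. No gene of the series passed this test with edgeR (0% of 17008), although 1826 genes (10.7%) had an unadjusted p under 0.05. Of the 10 members 4 were among them, Srxn1, Txnrd1, Gclc and Gclm. DESeq2 called 238 genes and limma voom 0. Srxn1 had the largest difference, 2.37 ± 0.63 (edgeR adjusted p = 0.269), and was the only one of the 10 that DESeq2 called (adjusted p = 0.0294). Txnrd1 differed by 1.13 ± 0.44 (edgeR adjusted p = 0.409), Gclc by 0.76 ± 0.31 (0.425) and Gclm by 0.64 ± 0.27 (0.439). Nfe2l2, which was not among the 4, differed by 0.82 ± 0.57 (edgeR adjusted p = 0.637). For Mt2A the difference was -0.98 ± 1.16 (edgeR adjusted p = 0.805), which leaves room for a larger change in either stroke. Without MCAO replicate 2, edgeR called 970 genes, among them Srxn1 (2.64 ± 0.23, adjusted p = 0.000763), Txnrd1 (1.27, adjusted p = 0.0255) and Gclc (0.83, adjusted p = 0.0339).

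Between the shams, 2 of the 10 genes were lower in sham LN and none higher (edgeR), in a comparison in which 21.3% of all tested genes were called and 11.3% were lower. Gpx4 averaged 240.2 ± 16.9 CPM in sham LN and 333 ± 32.9 CPM in sham PN (log2 difference -0.47 ± 0.13, edgeR adjusted p = 0.0269). Gclm averaged 17.5 ± 1.23 CPM in sham LN and 26.9 ± 4.35 CPM in sham PN (-0.62 ± 0.19, edgeR adjusted p = 0.0400). Without any single sham library 0 or 1 of the 10 genes was called, and with no filter on low counts 0. The sham libraries did not overlap for 6 of the 10 genes, with Mt2A higher in sham LN and Nfe2l2, Nqo1, Gclm, Txnrd1 and Gpx4 lower, and 50.9% of all tested genes were separated in this way (21.7% higher, 29.2% lower). The median of all genes was itself shifted by -0.11 on the log2 scale. Oligodendrocyte markers summed to 14258 to 20639 CPM in sham LN and 40423 to 50588 CPM in sham PN, and their part in these differences was not tested.

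Set in order of the group means, Nfe2l2, Nqo1, Txnrd1 and Srxn1 ran MCAO, PI, sham PN, sham LN from high to low. For Srxn1 only the step between MCAO and PI separated the libraries, and for Txnrd1 only that between sham PN and sham LN. Nfe2l2 and Nqo1 overlapped between MCAO and PI and were separated at both later steps. Mt2A ran PI, MCAO, sham LN, sham PN, where the strokes overlapped and the other neighbours did not. Gclc ran MCAO, sham LN, sham PN, PI and was separated only at the last step. Gpx4 was highest in sham PN and lowest in MCAO, with a gap only between PI and sham LN, while Mt3 was highest in PI and separated only between sham LN and MCAO. Gclm and Slc7a11 had no neighbouring groups whose libraries were apart. Shares of all tested genes apart are given above for each stroke against its sham and for the shams (50.9%). None was counted for other pairs of groups, such as MCAO against PI and PI against sham LN.

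Further genes around the pathway were counted in lists, which were also chosen with earlier results of these data known. Of 21 other NRF2 targets tested, 9 rose after MCAO, 1 fell and 11 did not pass, with a median log2 change of 0.37 beside -0.00 for all genes, of which 18.6% were called. After PI 1 rose, 0 fell and 20 did not pass, with a median of 0.31 beside -0.08 for all genes, of which 4.08% were called. Hmox1 stood at 642, 98.9 and 254 CPM after MCAO, against 5.95, 5.56 and 5.89 CPM in sham LN (log2 change 5.83 ± 0.70, edgeR adjusted p = 0.00134). It was also the PI call, with 79.3, 50.9 and 186 CPM against 9.93, 10.2 and 13.6 CPM in sham PN (3.23 ± 0.62, edgeR adjusted p = 0.0187). All stroke libraries were above all shams for Hmox1, MCAO replicate 2 included. The PI call was lost in 4 of the 6 fits without 1 library (edgeR adjusted p up to 0.103). Akr1b8, an aldo-keto reductase, averaged 22.1 ± 28.4 CPM after MCAO, against 0.242 ± 0.0156 CPM in sham LN (6.49 ± 1.12, edgeR adjusted p = 0.00443), and the glutathione peroxidase Gpx2 averaged 15.3 ± 20.2 CPM after MCAO, against 0.491 ± 0.418 CPM in sham LN (4.96 ± 1.39, edgeR adjusted p = 0.0310). The Gpx2 call was lost in 5 of the 6 fits without 1 library, with adjusted p up to 0.142, and the Akr1b8 call with limma voom (adjusted p = 0.0570). Without MCAO replicate 1 the log2 changes were smaller, at 4.84 for Hmox1, 4.49 for Akr1b8 and 2.88 for Gpx2. Taldo1, Txn1, Fth1, Ftl1, Osgin1 and Ugdh also rose, and Gstm1, a glutathione transferase, fell to 57.2 ± 7.98 CPM after MCAO, against 90.7 ± 11.7 CPM in sham LN (-0.66 ± 0.14, edgeR adjusted p = 0.0111).

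In the wider glutathione and thioredoxin systems 4 of 22 tested genes rose after MCAO and 1 fell, a share close to the 18.6% of all genes, and 0 passed after PI (edgeR, 5 with an unadjusted p under 0.05). Prdx5, a peroxiredoxin of mitochondria and peroxisomes, averaged 384 ± 218 CPM after MCAO, against 114 ± 4.38 CPM in sham LN (1.75 ± 0.37, edgeR adjusted p = 0.0098). The microsomal transferase Mgst1 (2.64 ± 0.71, edgeR adjusted p = 0.0269) and glutaredoxin Glrx (1.02 ± 0.32, edgeR adjusted p = 0.0468) rose as well, and each lost its call in 4 of the 6 fits without 1 library. Without MCAO replicate 1 the log2 changes were 0.89 for Mgst1 and 0.31 for Glrx, and with all 6 shams as one control Mgst1 was at 0.75 (edgeR adjusted p = 0.552). The peroxiredoxin Prdx6 fell by 0.54 on the log2 scale (edgeR adjusted p = 0.0281). Between the shams 10 of these 22 genes were lower in sham LN and 0 higher, where 21.3% of all tested genes were called and 11.3% were lower.

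Of 12 tested genes for metallothioneins and zinc handling beyond the members, 5 rose after MCAO and 0 fell, and after PI 2 rose and 0 fell, beside 18.6% and 4.08% of all tested genes called after MCAO and after PI. Slc39a1, a zinc importer, averaged 218 ± 61.9 CPM after MCAO, against 73.9 ± 3.75 CPM in sham LN (1.56 ± 0.21, edgeR adjusted p = 0.00207). It averaged 209 ± 46.2 CPM after PI and 97.2 ± 5.47 CPM in sham PN (1.11 ± 0.21, edgeR adjusted p = 0.0187), a call that only the fit without PI replicate 2 kept among those without 1 library. Slc39a14, a carrier of zinc, manganese and iron, rose after MCAO (1.86 ± 0.46, edgeR adjusted p = 0.0190), a call that only the fit without MCAO replicate 2 kept among those without 1 library. It was not called after PI (0.73 ± 0.45, edgeR adjusted p = 0.368).

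Of 9 tested genes named for ferroptosis, 2 rose after MCAO, a share close to the 18.6% of all tested genes called there, and 0 passed after PI (edgeR, 1 with an unadjusted p under 0.05). They were Gch1, which makes the precursor of tetrahydrobiopterin (4.92 ± 0.69, edgeR adjusted p = 0.00228), and the cyclooxygenase Ptgs2 (3.89 ± 0.86, edgeR adjusted p = 0.0118), which is also a gene of inflammation. The Ptgs2 call was lost without sham LN replicate 1 (edgeR adjusted p = 0.0593) and without sham LN replicate 3 (edgeR adjusted p = 0.0560), and without the unnumbered MCAO library the change was 2.81. Gch1 averaged 0.586 ± 0.282 CPM in sham LN and 14.4 ± 6.54 CPM in sham PN, and with all 6 shams as one control it was not called after MCAO (1.30, edgeR adjusted p = 0.401). Of 10 genes of the ATF4 stress response, which also reaches Slc7a11, 6 rose after MCAO and 1 fell, beside 18.6% of all tested genes called, and 2 rose after PI, beside 4.08%. Atf3 averaged 27.9 ± 19.9 CPM after MCAO, against 0.330 ± 0.252 CPM in sham LN (6.32 ± 0.78, edgeR adjusted p = 0.00146), and 17.9 ± 6.58 CPM after PI and 1.21 ± 0.325 CPM in sham PN (3.89 ± 0.68, edgeR adjusted p = 0.0145). The Atf3 call after PI was lost without each sham PN library (edgeR adjusted p up to 0.0938). The pseudokinase gene Trib3 (5.35 ± 0.72, edgeR adjusted p = 0.00191) and the transcription factor gene Cebpb (4.05 ± 0.80, edgeR adjusted p = 0.00759) rose too, whereas Psat1, of serine synthesis, fell to 70.5 ± 25.5 CPM after MCAO, against 181 ± 13.3 CPM in sham LN. Glucocorticoids also induce metallothioneins in other tissues, and their part here was not tested. Of 7 tested genes that they induce 0 passed after either stroke, beside 18.6% of all tested genes called after MCAO and 4.08% after PI. An unadjusted p under 0.05 (edgeR) was found for 1 of the 7 after MCAO and 1 after PI. Among 5 enzymes that clear superoxide and peroxide, only Sod2, the mitochondrial superoxide dismutase, rose after MCAO (2.29 ± 0.64, edgeR adjusted p = 0.0309). That share is close to the 18.6% of all tested genes called there, and 5 of the 6 fits without 1 library did not keep the Sod2 call. The lists were also recounted without MCAO replicate 2, picked because it stood apart from the other MCAO libraries. That recount is only a description. Without this library, 35.2% of all tested genes were called after MCAO. In that fit 10 of the 21 other NRF2 targets were higher and 1 lower, and 6 of the 10 ATF4 genes higher and 2 lower. Of the 12 zinc genes 6 were higher and 3 lower, and of the 22 glutathione and thioredoxin genes 6 higher and 2 lower. Among the 9 partners of NRF2, 3 were higher and 2 lower, and among the 9 ferroptosis genes 3 higher and 1 lower. For the 7 glucocorticoid-induced genes 1 was higher and 0 lower, as for the 5 superoxide and peroxide enzymes.

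**Figure D5:**
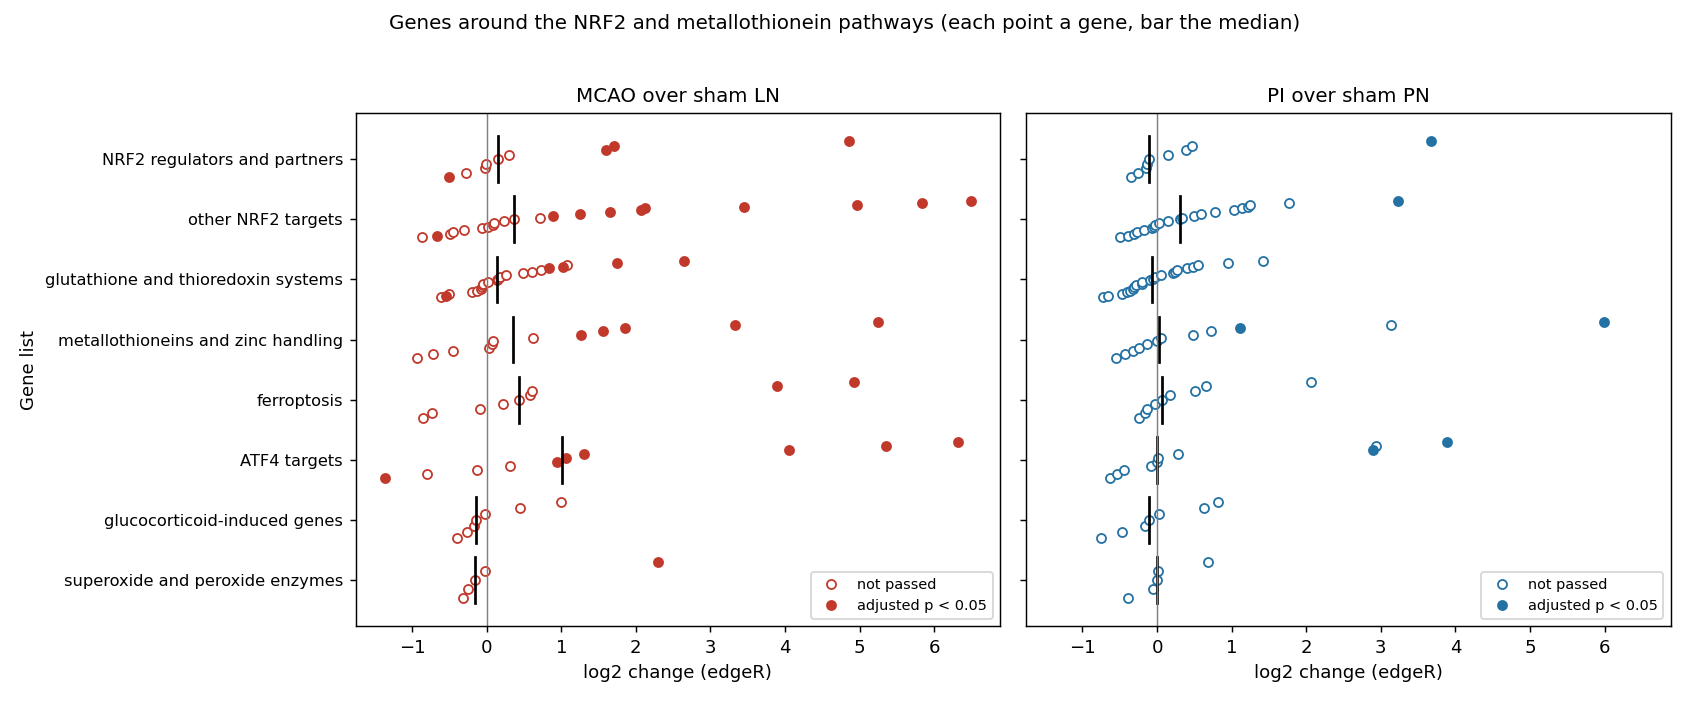
Log2 change (edgeR) of each tested gene in 8 lists, MCAO over sham LN on the left and PI over sham PN on the right, with filled points for an adjusted p under 0.05 and a black bar for the median of the list. Filled points to the right of 0 number 9 of 21 among other NRF2 targets after MCAO and 1 of 21 after PI.

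The pattern over the 12 libraries was compared with that of 11820 tested genes by Pearson's r of log2 CPM, as a description, since the libraries fall into 4 groups and are not independent points. Nfe2l2 was most like Dram1 (r = 0.99) and Irgm2 (0.98), Txnrd1 most like Slc25a37 (0.99) and Vcan (0.98), and Nqo1 most like Stat5a (0.95) and Sqrdl (0.95). Srxn1 was most like Kdm6b (0.98) and Gfpt2 (0.97), but the rank correlation with Kdm6b was only 0.51. Mt2A was most like Mt1a (r = 0.98, rank correlation 0.97) and Gbp5 (0.98). Gclc was nearest to Itga1 (0.97), Gclm to Sacm1l (0.94), Gpx4 to Rdh11 (0.97), Mt3 to Snrnp25 (0.94) and Slc7a11 to Zfp846 (0.89), the lowest of these best matches. Among the 10 genes themselves the closest pairs were Txnrd1 with Srxn1 (0.92) and Nfe2l2 with Mt2A (0.91).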

How the data were processed

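Brain RNA was isolated with Trizol and had an integrity number above 8, per the labels' protocols. HISAT2 and the assembly Rnor_6.0 appear in the submitters' processing notes. The program that counted reads, its annotation and its strand setting are not given in the sources used for this text. The deposited table holds unscaled gene counts in whole numbers for 37209 symbols and 12 libraries. A sample title was found for 11 of its column codes, and 1 code was placed by its group letters only.

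Low genes were removed with filterByExpr of edgeR 4.0.16 in R 4.3.3 (minimum count 10, total 15), and 17008 genes (45.7%) stayed. All 12 libraries entered a single quasi-likelihood fit with TMM scaling, which had a common biological coefficient of variation of 0.302. The fit was checked on simulated counts with the same dispersion in every group. That check does not cover stroke libraries that vary more than the shams. P-values are two-sided and adjusted over all tested genes by the Benjamini-Hochberg method, with a threshold of 0.05. Each SE was obtained by dividing the absolute log2 change by the root of its F statistic. Log2 CPM used a prior count of 2. Depth was 19805815 to 40400676 counts per library.

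The 10 members and the gene lists were chosen with earlier results of these data known. Beside the members, each list and stroke names up to 3 called genes with the largest change and at least 5 CPM in the higher group, plus Hmox1, Keap1, Mt1a and Mtf1. Taldo1, Txn1, Fth1, Ftl1, Osgin1, Ugdh, Gstm1, Prdx6, Psat1 and Mt1m were named after their values were seen, and were read from the main fit only. The fit was repeated with the size factors of DESeq2, without a filter, with a floor of 1 CPM in 3 libraries, on the compared groups only, with replicate number as a block, with the 6 shams pooled, and without each library. DESeq2 1.42.0 and voom of limma 3.58.1 were run as other tools. Names and promoter windows came from RefSeq's GRCr8 tables, and no coordinates were carried over from Rnor_6.0.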

Additional observations from a re-analysis of the deposited data

How the results depend on the processing

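The direction and the side of the threshold were kept in 506 of 590 alternative values of the 10 genes, while 37 lost a call, 13 gained one and 34 changed sign. For the other named genes 455 of 560 were kept, 79 lost a call, 12 gained one and 14 changed sign. The cause of these shifts was not tested, except that fits without a library have fewer samples.

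With all libraries the numbers of genes called were 3163 (MCAO), 694 (PI), 0 (difference between strokes) and 3625 (shams). With the compared libraries alone, MCAO gave 1354 genes and 2 members, and the shams 6365 and 5. DESeq2 gave 1738 genes for PI and 238 for the difference, with 1 member, and limma voom 315 for PI with 0 members. All 6 shams as one control gave 1512 genes for PI. No filter gave 1 gene for the difference and 0 members between shams, where DESeq2 size factors gave 1 member. Leaving out each library in turn gave 1136 to 6170 genes and 1 to 7 members for MCAO, 6 to 965 and 0 to 1 for PI, 0 to 970 and 0 to 3 for the difference, and 2334 to 2662 and 0 to 1 for the shams.

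Samples with the same replicate number were not taken as pairs, since the labels do not say so and the correlations of their deviations from the group means were 0.104 and 0.0426 for MCAO with sham LN and 0.0483, 0.150 and 0.154 for PI with sham PN. With the replicate block on numbered libraries, MCAO gave 1389 genes and 2 members, with Txnrd1 at 1.10 (edgeR adjusted p = 0.0809) and Mt2A at 2.35 (edgeR adjusted p = 0.0851), without the unnumbered library.

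Log2 changes near 0 changed sign. For MCAO, Slc7a11 was -0.036 with no filter and Gpx4 0.10 with the replicate block. Mtf1 after MCAO was -0.0092 with DESeq2 size factors, -0.0091 with DESeq2, -0.066 with no filter, -0.061 with the replicate block and -0.058 with all 6 shams. For PI, all 6 shams gave Gclm 0.043, Gpx4 0.022 and Ptgs2 -0.17, and the replicate block gave Gch1 -0.0079. Gpx4 in the difference was -0.026 with no filter. Between shams, Srxn1 was 0.031 with DESeq2 size factors and with DESeq2, 0.088 with no filter and 0.060 with the shams alone. Slc7a11 between shams was 0.027, 0.027, 0.081 and 0.055 in the same order, and 0.0090 with the replicate block. Leaving out each library in turn also turned some signs. For MCAO these ranges were Slc7a11 -0.21 to 0.30, Gpx4 -0.19 to 0.067 and Mtf1 -0.052 to 0.072. For PI these ranges were Txnrd1 -0.022 to 0.38, Slc7a11 -0.0035 to 0.39, Gch1 -0.15 to 0.46 and Sod2 -0.34 to 1.07. For the difference between strokes these ranges were Nqo1 -0.31 to 0.96, Slc7a11 -0.50 to 0.11, Gpx4 -0.093 to 0.26 and Mt2A -1.87 to 0.31. For sham LN over sham PN these ranges were Srxn1 -0.11 to 0.053 and Slc7a11 -0.18 to 0.075.

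Limits remain. With 3 libraries a group and stroke libraries that vary widely, 4 of the 5 stroke calls among the 10 genes were lost without some single library, and the sham of each stroke was matched by its code letter. Region and time are not given, and the marker sums of microglia and macrophages and of neutrophils differ between stroke and sham libraries. Choroid plexus markers summed to 1084 CPM in MCAO replicate 1, and their part in the MCAO changes was not tested.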

Other observations

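Genes of the X chromosome were nearly all listed at 0. Of 606 protein-coding symbols of the table that RefSeq (GRCr8) places on chromosome X, 591 (97.5%) had 0 counts in all 12 libraries, against 1060 of 16025 (6.61%) on other chromosomes. A value of 0 for such a gene in this table says nothing of its expression, and the lists used here were counted without the genes listed at 0. None of the 10 genes described above is among them. The cause was not tested.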
